A study of Saccharomyces cerevisiae with 94 samples.

Results

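Heat shock was followed in yeast cells in which rapamycin draws away Mex67, the receptor that carries mRNA through the nuclear pore. Members are all transcripts with at least 30 reads in a pool of heat-shocked, rapamycin-treated Mex67-AA cells or in the pool of the same strain before treatment, without ENO2 and without ribosomal protein genes. They number 4313 of the 6865 transcripts listed for these pools, of which 4117 are mRNAs and 196 belong to other biotypes. At the limit itself, 24 mRNAs had exactly 30 reads in their larger pool, and 35 mRNAs with 29 reads were left out.

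The heat-shocked cells carried FRB on Mex67 in a W303 background, with a tor1-1 allele, without FPR1, and with FKBP12 on the ribosomal protein Rpl13, so that rapamycin tethers Mex67 to an anchor that leaves the nucleus (Anchor Away). They received rapamycin for 16 min in all, with the shift to 37 °C during that time, and the labels list 2 samples, which the authors pooled into 1 column. They were set against the same strain, with the same alleles, at 25 °C and 0 min of rapamycin, also a pool of 2 samples. The counts of this pool equal the sum of 0 min libraries A and B of the rapamycin chase at 25 °C. The labels also list 2 Mex67-AA samples at 25 °C and 0 min as a control without rapamycin. Whether these are other cultures than the chase libraries is not stated, so the pool may not be the heat experiment's own control. For comparison, wild-type W303 cells moved to 37 °C for 14 min (library A) or 12 min (libraries B and D), and Mex67-AA cells given rapamycin at 25 °C for 16 min (libraries A and C) or 14 min (library B), are set against the 0 min library of their own replicate. The wild type is not listed with these alleles and got no rapamycin. Mex67-AA cells heated without rapamycin are not analysed here. Temperature, rapamycin and strain therefore differ together between some groups, and values are placed side by side without a test. Medians of single libraries cover members with at least 30 reads in that library or its own 0 min library, which can be fewer than the heat pool's.

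Budding yeast answers a rise in temperature with a burst of transcription from genes for chaperones, trehalose synthesis and protection from oxidation, driven mainly by the heat shock factor Hsf1 and by Msn2 and Msn4. Hsf1 binds heat shock elements, arrays of the triplet GAA and its complement, and Msn2 and Msn4 bind the stress response element. A new mRNA receives its pA-tail in the nucleus, is exported with Mex67 and is then deadenylated in the cytoplasm, so that tails tend to be longest on young molecules. For cells with blocked export, the study also describes hyperadenylation, in which scarce new mRNAs gain long tails in the nucleus. It left late times of the rapamycin chase out of its deadenylation modelling for this reason. The part of hyperadenylation in the tails given below was not tested.

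Poly(A)-selected RNA was read directly on nanopores, and the tables give reads per transcript and the mean and quantiles of their pA-tail lengths. Without ENO2, the heat pool held 2457870 reads and the 0 min pool 3304081. ENO2, which the study left out because a spike-in from unrelated libraries adds to its reads, took 19.0% of all reads in the heat pool and 20.0% in the 0 min pool. The 0 min pool equals the sum of 0 min libraries A and B of the rapamycin chase in all 7763 transcripts compared, and in library A, which gives 66.1% of it, 80.1% of the counts of at least 5 were multiples of 3, against 32.8% to 34.7% in every other library or pool used. In the heat pool, 365 transcripts had 3 reads and 283 had 2, whereas all 11 single libraries other than 0 min library A had more transcripts at 2 reads than at 3. The sources used here do not say whether reads were counted more than once. All 95% intervals below were therefore computed from counts divided by 3, they cover counting error only, and a transcript with no reads was given a floor of 9 reads. A pool has no replicates, so no difference between the pools was tested. All values are shares of a library, and a loss of one mRNA cannot be told apart from a gain of the others, nor fewer cells from less RNA per cell. Ribosomal protein genes took 40.9% of the reads in the heat pool and 34.7% in the 0 min pool. Under heat alone they took 15.3%, 21.7% and 22.5% in libraries A, B and D, against 40.2%, 41.0% and 41.8% at 0 min. A change is called where the fold is at least 2.

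Most mRNAs were lower after heat with rapamycin than at 0 min, while a small set of stress mRNAs was higher. Of 4117 mRNA members, 76 were at least 2-fold higher and 2828 at least 2-fold lower, and among all 4443 transcripts tested, ribosomal protein genes included, 2.27% were higher and 66.5% lower. The median log2 fold change was -1.71 over the mRNA members and -1.62 over all transcripts tested. This median depends on how members pass the read limit. The 1940 mRNAs with 30 reads in both pools had a median of -0.80, with 42.8% lower and 2.22% higher. The 2142 with 30 reads in the 0 min pool alone had a median of -2.47, with 93.3% lower and none higher. Of the 35 mRNAs that passed through the heat pool alone, 33 were higher and none lower. For 1352 mRNAs that reached 30 reads in 0 min library C, which is in neither pool, the median was -0.96, with 660 lower and 13 higher. Scaling to the median ratio of transcripts with reads in both pools, which lay at -0.74, turned the 76 higher and 2828 lower mRNAs into 316 and 2031. With 0 min library C as the control, 185 mRNAs were higher and 896 lower. Over one and the same set of 4117 mRNAs, library C gave 209 higher and 2598 lower. Each fold below is to be read against these medians, and each count in a list against the 2.27% higher and 66.5% lower of all transcripts tested.

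Less abundant mRNAs had the lower values. For this, mRNAs with at least 10 reads in 0 min library C were grouped by their level there, which leaves out the lower part of the first group. Those at 10 to 30 reads per 1000000 had a median log2 fold change of -2.02 and those at 30 to 100 of -1.81. Those at 100 to 300 had one of -0.94, those at 300 to 1000 of -0.22, and the 65 mRNAs above 1000 of 0.02. Reads were more concentrated in the heat pool, where the 10 most abundant mRNAs other than ENO1 took 35.6% of the mRNA reads without ribosomal protein genes, against 22.04% in the 0 min pool. ENO1 is left out here because its sequence is close to that of ENO2. It stood at 44946 reads per 1000000 in the heat pool and 39834 in the 0 min pool but at 5264 in 0 min library C, which has no ENO2 reads. Median log2 fold changes were also lower for longer transcripts, with -1.30 below 800 bases and -1.92 at 2400 bases or more. At the lower end of all mRNAs stood FAL1, an RNA helicase of ribosome assembly, with 0 reads in the heat pool and 85 in the 0 min pool (at least 7.03-fold lower), TEM1, a GTPase of mitotic exit, with 0 and 82 reads (at least 6.78-fold lower), and CDC20, an activator of the anaphase-promoting complex, with 0 and 68 reads (at least 5.62-fold lower). In all, 45 mRNA members had no read in the heat pool and 6 had none in the 0 min pool. The other 12 mRNAs at the lower end, PTP3, FYV7, ISY1, NAF1, CBP6, BSC2, YFR007W, ACF4, ARF3, DPB3, TOF2 and ELM1, had no read in the heat pool and 50 to 69 in the 0 min pool.

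The highest folds among mRNAs with reads in both pools belonged to small heat shock proteins and stress genes. TMA10, a ribosome-associated protein induced by stress, had 559 reads in the heat pool and 7 in the 0 min pool, a log2 fold change of 6.65 (95% interval 5.09 to 10.02). HSP26, a small heat shock protein that holds unfolded proteins, had 498 and 15 reads (5.43, 4.23 to 7.12). DDR2, a small stress protein, had 371 and 18 reads (4.75, 3.63 to 6.27), and HSP12, a membrane-stabilizing stress protein, 484 and 25 reads (4.67, 3.74 to 5.99). HSP42, the second small heat shock protein, had 244 and 23 reads (3.81, 2.72 to 5.03). ICY2, a gene of unknown function, had 1317 and 42 reads (5.38, 4.64 to 6.28), YHR087W, 499 and 32 reads (4.37, 3.47 to 5.37), the transcript that holds the hexokinase gene HXK1, 489 and 35 reads (4.21, 3.35 to 5.17), and HSP30, a plasma membrane heat shock protein, 131 and 12 reads (3.82, 2.43 to 5.82). Each of these intervals lies wholly above a fold of 2, as did those of 39 of the 76 mRNAs that were called higher. The remaining 6 mRNAs at the upper end had no read in the 0 min pool. YDR342C and YDR343C, 2 neighbouring loci that the tables give without a symbol, had 83 and 55 reads in the heat pool (at least 12.4-fold and 8.22-fold higher). The first 50 bases of their coding sequences are identical, and reads may be split between these loci. UGP1, GAC1, PGM1 and YCR006C, which is listed with a tRNA gene, had 45, 40, 38 and 41 reads. UGP1, GAC1 and PGM1 had at most 10.3 reads per 1000000 in any library of heat alone.

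The promoters of strongly induced members are shown with the motifs for which they were searched on both strands, heat shock element pairs (GAANNTTC or TTCNNGAA) and the stress response element (CCCCT or AGGGG). Capitals mark matches, which can overlap. The windows searched come from RefSeq, assembly R64, and run from 250 bases before to 50 bases after the first base of the coding sequence, and the stretch before the transcript start of the deposited table is printed, 5′ to 3′ on the strand of the gene.
HSP42, chrIV:806371-806556, plus strand: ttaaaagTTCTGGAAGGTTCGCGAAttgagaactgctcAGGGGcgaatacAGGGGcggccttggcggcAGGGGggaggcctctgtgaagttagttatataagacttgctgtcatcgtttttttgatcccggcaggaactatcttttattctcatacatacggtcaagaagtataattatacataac
DDR2, chrXV:231799-232005, minus strand: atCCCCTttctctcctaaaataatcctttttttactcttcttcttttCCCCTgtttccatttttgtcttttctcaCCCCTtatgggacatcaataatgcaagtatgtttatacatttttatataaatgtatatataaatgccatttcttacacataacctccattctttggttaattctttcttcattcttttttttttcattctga
HSP12, chrVI:107006-107209, plus strand: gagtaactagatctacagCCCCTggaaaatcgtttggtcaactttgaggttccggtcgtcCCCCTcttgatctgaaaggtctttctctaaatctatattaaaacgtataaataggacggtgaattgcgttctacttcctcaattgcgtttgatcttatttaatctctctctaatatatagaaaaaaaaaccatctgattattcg
TSL1, chrXIII:70374-70569, plus strand: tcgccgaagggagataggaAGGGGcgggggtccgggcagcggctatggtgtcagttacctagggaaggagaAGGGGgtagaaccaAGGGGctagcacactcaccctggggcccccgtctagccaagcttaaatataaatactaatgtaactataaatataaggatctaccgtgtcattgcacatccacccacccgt
HSP26, chrII:381780-381943, plus strand: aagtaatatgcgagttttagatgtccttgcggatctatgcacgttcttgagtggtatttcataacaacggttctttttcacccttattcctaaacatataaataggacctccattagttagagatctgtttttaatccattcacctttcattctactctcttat
HSP42 held 3 overlapping matches to heat shock element pairs and 3 stress response elements, DDR2 and TSL1 held 3 stress response elements each and HSP12 held 2, while HSP26 held no match in its window. The stress response element was found in 52.8% of the 36 mRNAs at least 4-fold higher, in 40.3% of the 72 mRNAs called higher that had 1 promoter in the table, in 17.8% of those called lower and in 21.6% of all 6001 promoters. At least 2 copies were found in 19.4%, 13.9%, 1.81% and 2.93% of the same sets. Heat shock element pairs were found in 25.0% of the mRNAs at least 4-fold higher, in 13.9% of those called higher, in 22.0% of those called lower and in 22.6% of all promoters. A match of these short words is a description, and other sites can lie outside the window.

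Of the disaggregase, small heat shock and sorting factors, 6 of 7 measured members were higher and none lower, with a median log2 fold change of 3.81. HSP26, HSP12, HSP42 and HSP30 passed the read limit through the heat pool alone, where 33 of all 35 such mRNAs were higher. Besides these, the members called higher were BTN2 and HSP104. BTN2, which sorts misfolded proteins, had 408 reads in the heat pool and 69 in the 0 min pool (2.98, 2.35 to 3.70). HSP104, the disaggregase that pulls proteins out of aggregates, had 501 and 215 reads (1.65, 1.23 to 2.06). The 7th, HSP31, a chaperone of the DJ-1 family, had 90 reads in each pool (0.43, -0.35 to 1.21). In levels, BTN2 stood at 166 reads per 1000000 in the heat pool and at 20.9 in the 0 min pool, where 0 min libraries A, B and C held 24.7, 13.4 and 14.96. In wild-type cells under heat alone, BTN2 stood at 966, 632 and 514 reads per 1000000 in libraries A, B and D, above the heat pool in all 3.

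The Hsp70 chaperones of the cytosol divided. Of 13 measured members 1 was higher and 4 lower, with a median log2 fold change of 0.06. SSA4, the strictly heat-inducible Hsp70, was the member called higher, with 240 reads in the heat pool and 55 in the 0 min pool (2.54, 1.83 to 3.40). SSA1, a constitutive and inducible Hsp70, had 851 and 747 reads (0.61, 0.37 to 0.87), and SSA3, listed with AAR2, had 50 and 36 reads (0.90, -0.22 to 2.13). The Hsp110 exchange factor SSE2 had 45 and 31 reads (0.96, -0.24 to 2.33). YDJ1 and SIS1, J-domain partners of Hsp70, were lower with log2 fold changes of -1.58 and -1.06, as were the exchange factor FES1 at -1.05 and the ribosome-bound Hsp70 SSB1 at -1.14. SSA1 and SSA2, and SSB1 and SSB2, are near-identical pairs, and reads may be split between the copies. Under heat alone the same list had medians of 2.60, 2.55 and 2.66, with 9 members higher in each library. With scaling to the median ratio, 4 members were higher and none lower in the heat pool.

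No member of the Hsp90 system was called higher and 4 of 11 were lower (SGT1, CPR7, CNS1 and PPT1, all cochaperones), with a median of -0.20, which turned to 0.55 with 4 higher and none lower under scaling to the median ratio. HSP82, the inducible Hsp90, had 287 reads in the heat pool and 245 in the 0 min pool (0.65, 0.21 to 1.10). In levels HSP82 stood at 117 reads per 1000000 in the heat pool and 74.2 in the 0 min pool, while under rapamycin at 25 °C it stood at 8.49, 20.5 and 28.9 in libraries A, B and C, and under heat alone at 2917, 2145 and 1834 in libraries A, B and D. The heat pool was thus above each rapamycin library and below each library of heat alone. HSC82, the constitutive Hsp90, had 2860 and 4407 reads (-0.20, -0.32 to -0.08).

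The mitochondrial chaperones did not follow. Of 6 members none was higher and 3 were lower, with a median of -0.91, against 2.86, 2.60 and 2.40 under heat alone, where library D covers 5 of them (median -0.74 for these in the heat pool). Scaling to the median ratio gave 1 higher, 1 lower and a median of -0.17 in the heat pool. HSP60, the mitochondrial chaperonin, had 525 reads in the heat pool and 1494 in the 0 min pool (-1.08, -1.34 to -0.83), SSC1, the mitochondrial Hsp70, 485 and 1397 reads (-1.10, -1.36 to -0.84), and MGE1, its exchange factor, 30 and 402 reads (-3.30, -4.41 to -2.39). HSP78, a mitochondrial disaggregase, had 83 and 66 reads (0.76, -0.08 to 1.65). In levels, HSP60 had 214 reads per 1000000 in the heat pool and 452 in the 0 min pool, and 4395, 3262 and 2846 under heat alone. Among 10 chaperones of the endoplasmic reticulum none was higher and 4 were lower (median -0.73), with KAR2, the Hsp70 of that compartment, at -0.47, and scaling to the median ratio turned this median to 0.02. Over the 37 members of the Hsp70, Hsp90, disaggregase and mitochondrial lists together, 7 were higher, 11 were lower and the median was 0.07. Over their members with reads in libraries A, B and D (34, 32 and 29), the medians were 0.14, 0.09 and 0.11 in the heat pool, against 3.83, 3.49 and 2.97 under heat alone.

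**Figure D1:**
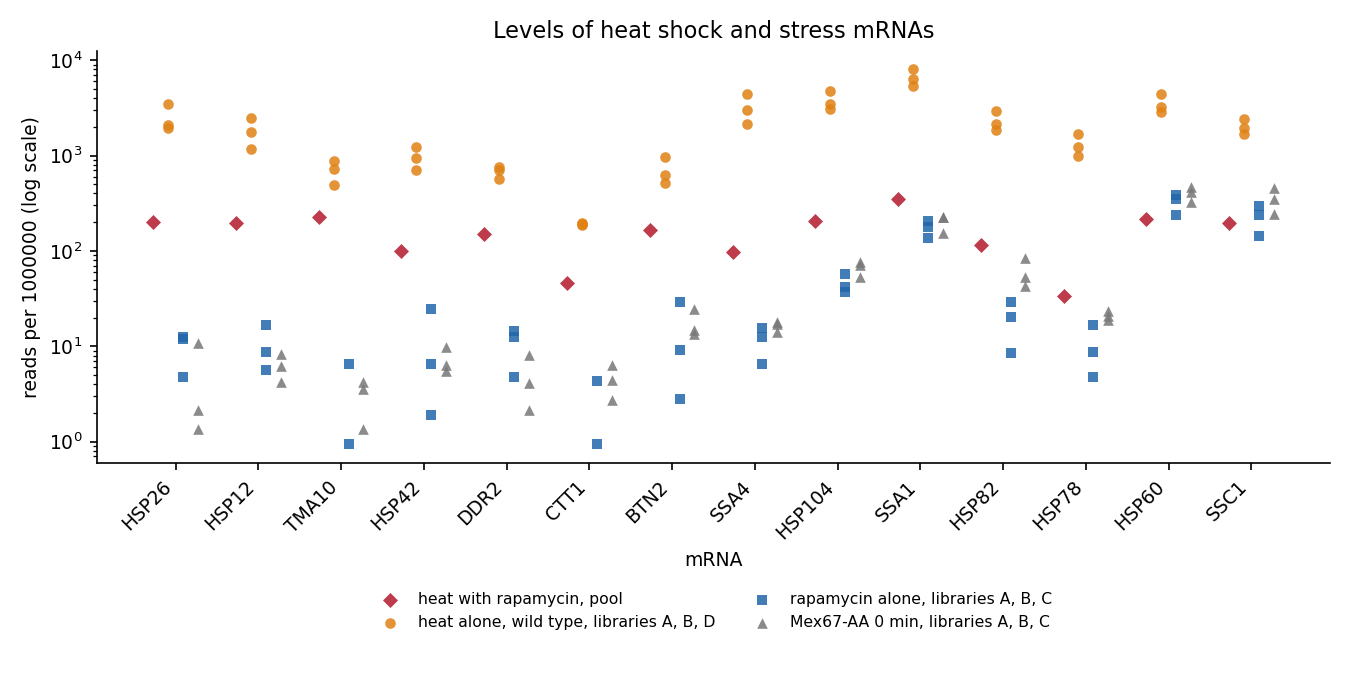
Level of 14 heat shock and stress mRNAs in reads per 1000000 (log axis) in the pool of heat with rapamycin (diamonds), in 3 wild-type libraries of heat alone (circles), in 3 libraries of rapamycin alone (squares) and in 3 Mex67-AA libraries at 0 min (triangles); libraries at 0 are not drawn. The diamonds lie below the circles for every mRNA shown, above the squares and triangles for HSP26 to HSP78, and below the triangles for HSP60 and SSC1.

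Genes of reserve carbohydrates and general stress genes were called higher or not called, and none was lower. Of 11 measured genes of trehalose and glycogen metabolism 5 were higher and none lower, with a median of 0.72, or 9 higher and a median of 1.46 under scaling to the median ratio. Of these 5, only TSL1 had 30 reads in both pools. UGP1, GPH1, PGM2 and GSY1 passed the read limit through the heat pool alone, where 33 of all 35 such mRNAs were higher. TSL1, a subunit of trehalose synthase, had 386 reads in the heat pool and 46 in the 0 min pool (3.48, 2.76 to 4.41). GPH1, glycogen phosphorylase, had 81 and 11 reads (3.25, 1.66 to 5.16), PGM2, a phosphoglucomutase, 116 and 18 reads (3.08, 1.88 to 4.66), and GSY1, a glycogen synthase, 69 and 26 reads (1.82, 0.61 to 3.08). TPS1, the catalytic trehalose phosphate synthase, had 256 and 286 reads (0.27, -0.17 to 0.70). Of 18 general stress genes, of which 13 had 30 reads in both pools, 10 were higher and none lower, with a median of 1.31, or 12 higher and a median of 2.05 under that scaling. They included CTT1, the cytosolic catalase, with 112 and 11 reads (3.72, 2.16 to 5.59), SPI1, a cell wall protein, with 395 and 63 reads (3.07, 2.41 to 3.82), and GLK1, glucokinase, with 401 and 174 reads (1.63, 1.18 to 2.11). The superoxide dismutase SOD1 and the peroxiredoxins AHP1 and TSA1 lay between -0.33 and 0.02. Under heat alone the median of the general stress genes was 5.04, 5.24 and 4.12 in libraries A, B and D.

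Among messages of abundant housekeeping proteins, none of 14 glycolytic enzymes was called in either direction (median 0.37), although scaling to the median ratio put 9 of them among the higher, and the list took 16.6% of the reads in the heat pool and 10.4% in the 0 min pool when ENO1 is left out. TDH3, a glyceraldehyde phosphate dehydrogenase, came closest to the limit, with 172439 reads in the heat pool and 116397 in the 0 min pool (0.99, 0.98 to 1.01). Of 25 translation factors 13 were lower (median -1.04, and 5 lower and 4 higher under scaling to the median ratio) and 1 was higher, CAM1, a subunit of elongation factor 1, with 1563 and 951 reads (1.14, 0.94 to 1.35). PAB1, which coats pA-tails, had 1240 and 977 reads (0.77, 0.56 to 0.98).

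Ribosome biogenesis, histone and RNA-degradation mRNAs were lower. In ribosome biogenesis 77 of 81 members were lower and none higher (median -2.77). All 10 histone genes were lower (median -2.43), from HHF1, histone H4, with 194 reads in the heat pool and 3005 in the 0 min pool (-3.52, -3.90 to -3.16), to HHO1, histone H1, with 56 and 186 reads (-1.30, -2.10 to -0.52). Copies of 1 histone share most of their sequence. Of 16 nuclear RNA surveillance factors, 15 were lower (median -2.92), and of 17 cytoplasmic decay factors 16 (median -2.18), with DHH1, a helicase that activates decapping, at -0.07. Only 6 of these surveillance factors and 5 of these decay factors had 30 reads in both pools. The others passed through the 0 min pool alone, where 93.3% of all such mRNAs were lower, with a median of -2.47. Of the ribosome biogenesis members, 43 had 30 reads in both pools. Proteasome subunits had 18 of 32 lower and none higher (median -1.05), or 6 lower and a median of -0.31 under scaling to the median ratio, beside the 66.5% lower of all transcripts tested. Their median of -1.05 stood against medians of 1.38, 1.22 and 1.23 under heat alone, where library D covers 28 of them. Among transcripts that are listed as transcriptionally repressed by heat, other than ribosomal protein genes, 279 of 384 were lower. This is 72.7%, beside the 66.5% lower of all transcripts tested. The 1 that was higher was SCW4, a cell wall glucanase, with 3238 and 1420 reads (1.62, 1.46 to 1.78). The study took that list from earlier measurements of RNA polymerase II on chromatin under heat, and the sources used here do not say whether it was then limited to transcripts measured in these libraries. Scaling to the median ratio gave 222 lower and 14 higher. SCW4 stood at 1317 reads per 1000000 in the heat pool and 430 in the 0 min pool, at 761, 843 and 699 under rapamycin at 25 °C, and at 528, 720 and 637 under heat alone. Of 14 cell wall mRNAs 3 were higher and 4 lower, with a median of -0.72 that turned to 0.02 under scaling to the median ratio. EXG1 at -3.44 and UTR2 at -3.25, enzymes that act on wall polysaccharides, had the lowest values. Of 22 genes of ergosterol synthesis 7 were lower and none higher (median -0.48). Under scaling to the median ratio 3 were lower, 2 higher and the median was 0.27. Of 9 ubiquitin and proteasome regulators 5 were lower and none higher (median -1.83), or 5 lower and 2 higher under that scaling. Of 8 stress transcription factors 6 were lower and none higher (median -1.60). Without scaling, the shares lower in these lists were 31.8%, 55.6% and 75.0%, beside 66.5% of all transcripts tested.

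MEX67 itself was higher, which bears on its message and not on the tethered protein. It had 126 reads in the heat pool and 29 in the 0 min pool (2.53, 1.48 to 3.66), with a mean tail of 80.3 adenosines in the heat pool and 37.0 in the 0 min pool. At 25 °C with rapamycin MEX67 was also higher than at 0 min, with log2 fold changes of 3.09, 1.01 and 3.37 in libraries A, B and C and mean tails of 83.0, 78.1 and 86.9. In wild-type cells under heat alone its log2 fold changes were 0.80, 0.87 and 1.88. Of the 15 measured mRNAs for export and nuclear RNA-binding proteins, MEX67 was the 1 called higher and 10 were lower (median -1.65). These 10 are 66.7%, beside 66.5% lower and a median of -1.62 over all transcripts tested.

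The 76 mRNAs called higher had a median log2 fold change of 1.96 in the heat pool. Of these, 57, 50 and 43 had 30 reads in libraries A, B and D of heat alone or their 0 min libraries, and over them the medians were 1.74, 1.88 and 2.06 in the heat pool, against 4.86, 4.90 and 4.40 under heat alone. The 36, 25 and 13 with such reads under rapamycin alone had medians of -0.09, 0.21 and 0.49 in libraries A, B and C. These rapamycin libraries share their 0 min libraries A and B with the pool, so that only the values themselves are given. With these reads, 46 of 57, 39 of 50 and 35 of 43 were at least 2-fold higher in libraries A, B and D of heat alone. Among all mRNA members with such reads, 934 of 2328, 492 of 1622 and 333 of 839 were. The counts of the 76 that follow, and their shares of all transcripts tested, set no read limit in these libraries. Some of them therefore rest on fewer than 30 reads. Of the 76, 46 were at least 2-fold higher in all 3 libraries of heat alone, as were 12.7% of all transcripts tested. Of the 76, 34 had a log2 fold change below all 3 libraries of heat alone (76.7% of all transcripts tested did) and 25 had one above all 3 (10.9%). ICY2 belongs to the 25, with 536 reads per 1000000 in the heat pool and 12.7 in the 0 min pool, against 434, 341 and 164 under heat alone. HSP26 stood at 203 in the heat pool, against 3490, 2072 and 1957 under heat alone, HSP104 at 204, against 4730, 3435 and 3046, SSA4 at 97.6, against 4447, 2973 and 2127, and SSA1 at 346, against 7982, 6278 and 5409. The level of the heat pool was below every library of heat alone for each of these 4 chaperones.

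**Figure D2:**
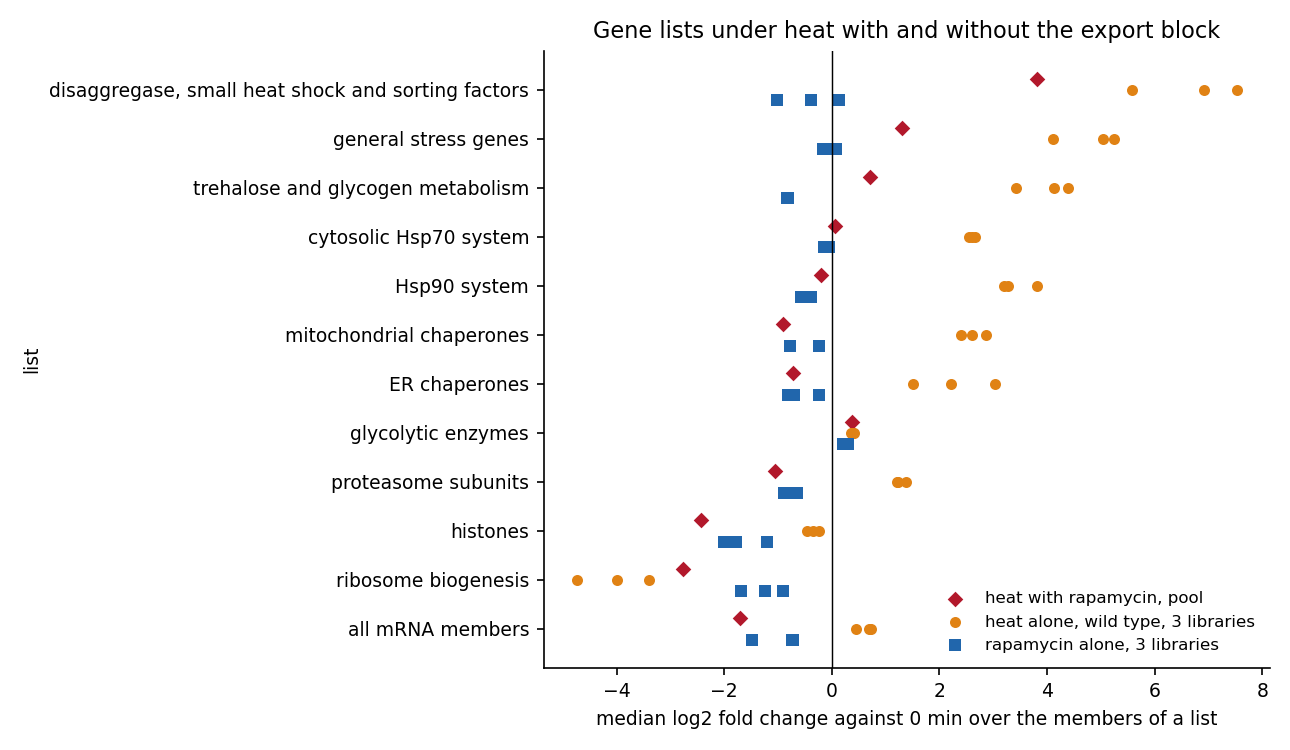
Median log2 fold change against 0 min over the members of 11 gene lists and of all mRNA members, for the pool of heat with rapamycin (diamonds), 3 wild-type libraries of heat alone (circles) and 3 libraries of rapamycin alone (squares); medians of single libraries cover members with 30 reads there or at 0 min. The diamond of the disaggregase list lies at 3.81, those of the Hsp70 and Hsp90 lists near 0, and that of all mRNA members at -1.71.

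The tails of most mRNAs were shorter, and those of strongly induced mRNAs longer. Over the 1940 mRNAs with 30 reads in both pools, the mean pA-tail had a median of 22.7 adenosines in the heat pool and 35.8 in the 0 min pool, and the median difference was -12.1 adenosines. The tail was longer in the heat pool for 286 of them, and for 13.8% of all mRNAs with 30 reads in both pools when ribosomal protein genes are included. Of 14 mRNAs at least 4-fold higher with such reads, 13 had the longer tail in the heat pool, with a median difference of 20.0 adenosines and medians of 59.2 in the heat pool and 38.6 in the 0 min pool. Their 95th percentile had a median of 113 adenosines in the heat pool and 71.0 in the 0 min pool, and their 5th percentile one of 15.5 in the heat pool. Of the 29 mRNAs 2- to 4-fold higher, 11 had the longer tail, and the median difference was -4.89. Taken as 1 group, the 43 mRNAs called higher had a median difference of 8.46, which turned to -5.52 with 0 min library B as control, to -7.87 with library C and to -8.07 with at least 100 reads in both pools. With 30 reads, library A kept 8 of the mRNAs at least 4-fold higher, library B kept 3 and library C kept 1, and all of these had the longer tail in the heat pool. With at least 10 reads, the mRNAs at least 4-fold higher had medians of 21.2 with library A as control (17 mRNAs), 19.4 with library B (18) and 17.9 with library C (2).

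**Figure D3:**
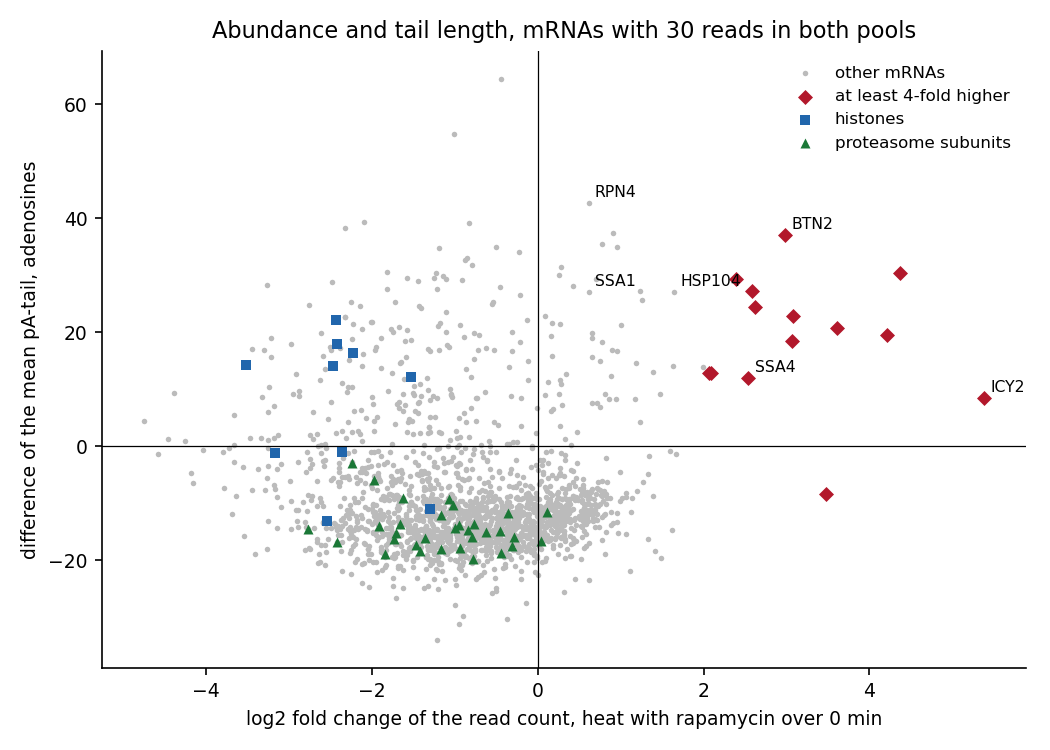
Difference of the mean pA-tail in adenosines, heat with rapamycin minus 0 min, against the log2 fold change of the read count, for 1940 mRNAs with 30 reads in both pools (1 point per mRNA). Most points lie near -12 adenosines, 13 of the 14 mRNAs at least 4-fold higher lie above 0, 6 of 10 histones lie above 0 and all 32 proteasome subunits lie below it.

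Single mRNAs show how far the tails moved. For BTN2, tails averaged 77.7 adenosines in the heat pool and 40.6 in the 0 min pool, for HSP104 63.3 and 36.3, for SSA1 59.9 and 33.0, and for SSA4 47.6 and 35.7. RPN4, the transcription factor of proteasome genes, was not called in abundance, with 181 and 159 reads (0.61, 0.05 to 1.17), yet its tail was 80.9 adenosines in the heat pool and 38.3 in the 0 min pool. The largest increase was that of PTK2, a kinase that regulates ion transport, with 102.5 adenosines in the heat pool (32 reads) and 38.1 in the 0 min pool (59 reads), followed by ROM2, an exchange factor of the cell wall GTPase Rho1, with 91.8 and 37.0. YGL101W, PDE2, CPR8 and MET13 had increases of 37.4 to 39.4 adenosines. The largest decreases, of 25.8 to 34.0 adenosines, belonged to PMT5, YIR018C-A, SAY1, SRO9, YJR112W-A, CDC3, YEL048C and THI71, each with 30 to 60 reads in the heat pool. In PMT5, a protein mannosyltransferase, the mean was 29.8 adenosines in the heat pool and 63.8 in the 0 min pool.

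Not all mRNAs that were lower had shorter tails. Of the 263 mRNAs at least 4-fold lower, 76 had the longer tail in the heat pool, the median difference was -6.33, and the median of their 95th percentile was 82.0 adenosines in the heat pool and 69.0 in the 0 min pool. Over all 830 mRNAs called lower the mean tail differed by a median of -11.2 adenosines and the 95th percentile by 5. Of 10 histone mRNAs 6 had longer tails, among them HHT1 with 56.9 and 34.8, HHF1 with 51.4 and 37.3 and HTA1 with 50.4 and 32.5 adenosines. In contrast, the tails of all 32 proteasome subunits and all 14 glycolytic enzymes were shorter, with median differences of -15.00 and -10.6. Of 6 mitochondrial chaperones 5 had longer tails, by a median of 15.4 over the list, although none rose in abundance: SSC1 had 59.4 adenosines in the heat pool and 41.6 in the 0 min pool, while HSP60 had 25.9 and 35.4.

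The strongly induced mRNAs also carried longer tails than under heat alone. Of the mRNAs at least 4-fold higher in the heat pool, those with 30 reads in the pool and in the library had longer tails in the pool in 25 of 25 cases against library A, in 23 of 23 against library B and in 22 of 22 against library D, with median differences of 27.7, 27.4 and 27.2 adenosines. Over all mRNAs called higher, the tail was longer in the pool for 44 of 57, 38 of 50 and 33 of 43 and shorter for the other 13, 12 and 10, with median differences of 20.7, 18.4 and 16.9 adenosines. Against rapamycin alone few of the mRNAs at least 4-fold higher could be compared, with median differences, pool minus library, of -7.75 adenosines in library A (2 mRNAs), 2.20 in library B (3) and -22.6 in library C (1). Over all mRNAs called higher, these were -2.66, -2.92 and -1.73 adenosines (21, 23 and 12 mRNAs). Among all mRNAs tested, the tail was longer in the pool than under heat alone for 16.9%, 18.4% and 14.9%. HSP26 had 67.4 adenosines in the heat pool, against 36.9, 40.0 and 39.4 under heat alone, HSP12 had 73.2, against 36.5, 38.2 and 38.8, and TMA10 had 55.1, against 27.7, 28.1 and 25.7. The smallest difference to library A was that of TSL1, with 37.8 in the heat pool, against 30.9, 31.7 and 31.0 under heat alone. Over all mRNA members, tails under heat alone differed from 0 min by medians of 1.26, 0.60 and 0.03 adenosines, and those under rapamycin alone by -11.6, -7.75 and -7.92.

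**Figure D4:**
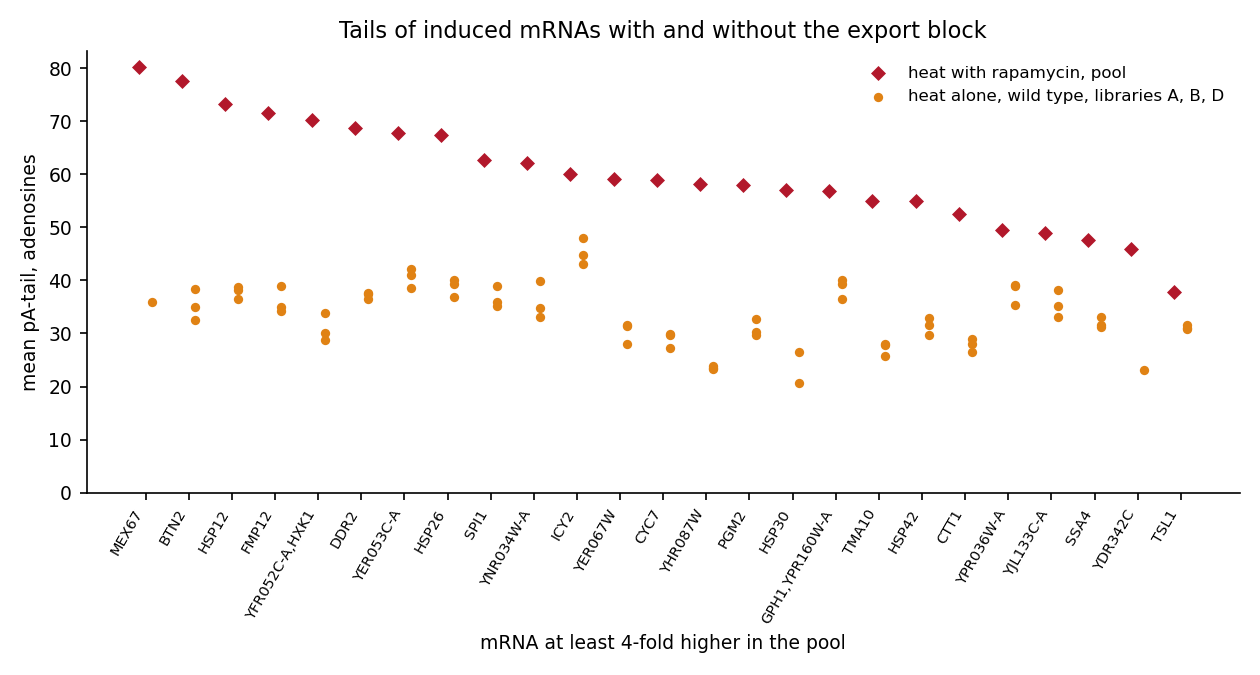
Mean pA-tail in adenosines of the 25 mRNAs at least 4-fold higher in the pool that had 30 reads in library A of heat alone, in the pool of heat with rapamycin (diamonds) and in wild-type libraries A, B and D of heat alone (circles, drawn where a library had 30 reads). Every diamond lies above its circles, from 80.3 adenosines for MEX67 to 37.8 for TSL1.

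Transcripts other than mRNA were mixed, with rRNA and a few structured RNAs higher. Of CUTs, SUTs and XUTs 63.6%, 73.7% and 66.7% were lower, beside the 66.5% of all transcripts tested. All transcripts other than mRNA together took 1.85% of the reads in both pools, but with a different make-up. The 95% interval was 1.82% to 1.88% in the heat pool and 1.82% to 1.87% in the 0 min pool. Ribosomal RNA took 0.471% in the heat pool and 0.121% in the 0 min pool, and transcripts that are neither rRNA nor hold an open reading frame in their name took 0.402% and 0.575%. Of 196 members 24 were higher and 115 lower (median -1.24), beside the 2.27% higher and 66.5% lower of all transcripts tested. These counts depend on how members pass the read limit. The 54 with 30 reads in both pools gave 10 higher and 13 lower (median -0.40), the 128 that passed through the 0 min pool alone gave 102 lower and none higher, and the 14 that passed through the heat pool alone were all higher. The same split was 13 of 14 higher in rRNA, 3 higher and 21 lower of 33 CUTs (cryptic unstable transcripts), 1 and 14 of 19 SUTs (stable unannotated transcripts), 2 and 68 of 102 XUTs (Xrn1-sensitive transcripts), and 2 and 6 of 15 listed as snRNA. The name of a transcript does not settle its strand or extent where it overlaps a gene, and 23 of the members hold an open reading frame in their name.

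**Figure D5:**
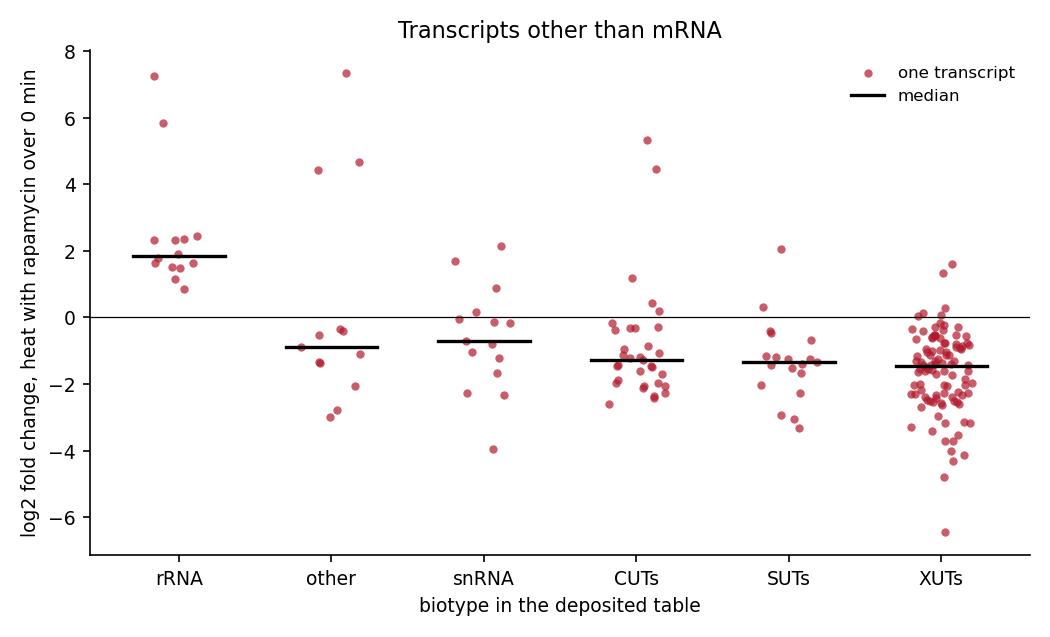
Log2 fold change of the read count, heat with rapamycin over 0 min, of each of 196 transcripts other than mRNA (points) by the biotype of the deposited table, with the median of each biotype (line). The rRNA median lies at 1.85 and those of CUTs, SUTs and XUTs between -1.29 and -1.46.

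Structured RNAs had some of the highest values. SCR1, the RNA of the signal recognition particle (chrV:441987-442508, plus strand), had 1622 reads in the heat pool and 13 in the 0 min pool (7.34, 6.14 to 9.39). RPR1, the RNA of RNase P (chrV:117667-118035, minus strand), had 468 and 29 reads (4.42, 3.47 to 5.48), and NME1, the RNA of RNase MRP (chrXIV:585587-585926, plus strand), 85 and 4 reads (4.67, 2.64 to 10.59). The 5S rRNA copies RDN5-1 and RDN5-6 had 168 and 149 reads in the heat pool and 1 and 3 in the 0 min pool, and such repeated copies share their reads. Their last 60 bases are shown because these RNAs were read after poly(A) selection, and no run of 4 or more A, which capitals would mark, is encoded there.
SCR1, chrV:442449-442508, plus strand: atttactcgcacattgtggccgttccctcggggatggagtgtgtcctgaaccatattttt
RPR1, chrV:117667-117726, minus strand: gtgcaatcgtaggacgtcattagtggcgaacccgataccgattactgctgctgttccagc
NME1, chrXIV:585867-585926, plus strand: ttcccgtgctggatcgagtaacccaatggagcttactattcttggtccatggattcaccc
RDN5-1, chrXII:459737-459796, plus strand: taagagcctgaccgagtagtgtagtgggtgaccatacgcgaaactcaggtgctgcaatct
The mean tail of SCR1 reads was 24.1 adenosines in the heat pool and that of RPR1 reads was 22.6. SCR1 stood at 660 reads per 1000000 in the heat pool and 3.93 in the 0 min pool, at 41.5, 25.3 and 198 under rapamycin at 25 °C and at 100, 25.1 and 15.4 under heat alone, so that the heat pool was above every other library. RPR1 stood at 190 in the heat pool and 8.78 in the 0 min pool, at 20.8, 10.2 and 45.5 under rapamycin and at 25.4, 12.5 and 0 under heat alone. Other rRNA copies were also higher, with RDN25-1, the large subunit rRNA, at 875 and 230 reads (2.35, 1.98 to 2.73). snR52, listed with CUT567, had 106 and 6 reads (4.46, 2.60 to 7.66), and snR45, listed with CUT433, 44 and 1 reads; both are guide RNAs for modification of rRNA.

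TLC1, the RNA template of telomerase, went the other way, with 29 reads in the heat pool and 313 in the 0 min pool (-2.98, -4.05 to -2.02). In levels it stood at 11.8 reads per 1000000 in the heat pool and 94.7 in the 0 min pool, at 9.43, 16.2 and 4.13 under rapamycin at 25 °C and at 49.4, 97.9 and 51.4 under heat alone, so that the heat pool lay within the range of the rapamycin libraries and below each library of heat alone. Its tail was 72.8 adenosines in the heat pool, over its 29 reads there, and 54.3 in the 0 min pool. The XUT listed as XUT_13R-114 had 0 and 58 reads (at least 4.79-fold lower), and XUT_4F-32 had 2 and 92 reads (-4.78, -9.88 to -1.94). Among SUTs, SUT504 was the 1 called higher, with 38 and 12 reads (2.05, 0.43 to 4.20), and SUT111 had the lowest value, with 2 and 33 reads (-3.32, -8.46 to -0.25). snR191, listed with its host gene NOG2, a GTPase of ribosome assembly, had 16 and 344 reads (-3.96, -5.75 to -2.83). Apart from such single cases, the intervals of CUTs, SUTs and XUTs are wide, and most had under 100 reads in each pool.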

How the data were processed

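Poly(A)-selected RNA of Saccharomyces cerevisiae was sequenced directly on nanopores. The authors called bases with Guppy, mapped reads with minimap2 2.17 to a transcriptome of their own on sacCer3, sorted them with SAMtools 1.9 and kept pA-tails that Nanopolish passed. They deposited read counts per transcript, not normalized, and the mean, median and quantiles of tail lengths in adenosines (other values that the authors deposited). The column header of the heat pool gives another temperature than the labels, which are followed here. The deposited counts of the 0 min pool equal the sum of 0 min libraries A and B. Another column of the same table was not used. Its header pairs 0 min with the heat temperature, and no label gives Mex67-AA cells heated without rapamycin. The study's text describes such cells, so the column may be the heat control of the same strain, without which strain and rapamycin cannot be told apart beside heat alone. The heat pool has a header of the same kind, but its strain, rapamycin and time match 1 labelled group. In all, 70 columns were used and 1060 other columns of values were not.

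Totals exclude ENO2 and include ribosomal protein genes. The log2 fold change is that of reads plus 0.5 per total, and a fold of at least 2 was called. Since the columns are pools, no test was made. Intervals are exact Clopper-Pearson 95% intervals on counts divided by 3, and the limit for no reads was 9 reads, which is 3 reads counted 3 times. Library totals run from 86022 to 3304081 reads. Tails were compared with at least 30 reads on both sides. The labels name replicates but do not say that they were separate cultures. Named are the 15 mRNAs at each end, members of gene lists, 5 transcripts per other biotype and end, 8 tail changes per end, and MEX67. Members and lists were chosen with earlier results of these data known. Alternatives covered the pseudocount, library totals, read limits, each 0 min library as control and tail quantiles. Python 3.11.15, numpy 2.4.6, pandas 2.3.3, scipy 1.17.1 and matplotlib 3.10.9 were used, and the calculations were tested on simulated data. Promoters and RNA ends were read from RefSeq, assembly R64, in which 4108 mRNA members were found by name, all of them overlapping the deposited position.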

Additional observations from a re-analysis of the deposited data

Results flagged for a closer look

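For 7 sets of transcripts the median log2 fold change was negative in the pool of heat with rapamycin, also over the transcripts with reads in each compared library, and positive in all 3 wild-type libraries of heat alone. The difference was not tested, since the pool has no replicates and strain, rapamycin and time differ as well. Over all mRNA members the pool's median was -1.71, and over the 2328, 1622 and 839 mRNAs with reads in libraries A, B and D it was -1.20, -0.86 and -0.37, against 0.72, 0.44 and 0.68 under heat alone. Over the noncoding members it was -1.24, and over the 32, 18 and 8 with reads in those libraries -0.64, -1.31 and -1.17, against 1.03, 0.22 and 0.13. Without names that hold an open reading frame the sign no longer held, with -0.52, 0.42 and -0.20 in the pool over the 21, 10 and 4 with reads, against 1.04, 0.32 and 0.83. The mitochondrial chaperones had -0.91, against 2.86, 2.60 and 2.40, and the ER chaperones -0.73 (-0.50, -0.49 and -0.47 over the members with reads), against 2.21, 1.501 and 3.04. The proteasome subunits had -1.05, against 1.38, 1.22 and 1.23, ergosterol synthesis had -0.48, against 0.39, 0.29 and 0.56, and mRNA export and nuclear RNA-binding proteins had -1.65 (-0.71, -0.71 and -0.79 over the members with reads), against 0.49, 0.13 and 0.76. Under scaling to the median ratio the pool's median turned to 0.02 for the ER chaperones and to 0.27 for ergosterol synthesis. Libraries of heat alone were not scaled in this way. In libraries A, B and D ribosomal protein genes fell from 40.2%, 41.0% and 41.8% of the reads at 0 min to 15.3%, 21.7% and 22.5%. Between the pools their share rose from 34.7% to 40.9%. Such a change in share shifts the folds of all other transcripts, and its part in these signs was not tested. Under rapamycin alone, whose libraries A and B share 0 min libraries with the pool, the medians of all 7 sets were negative in libraries A, B and C as well. They were -1.48, -0.72 and -0.74 over all mRNA members, -1.48, -0.47 and -0.84 over noncoding members, -0.77, -0.24 and -0.77 for mitochondrial chaperones, -0.81, -0.70 and -0.24 for ER chaperones, -0.79, -0.64 and -0.89 for proteasome subunits, -0.34, -0.22 and -0.49 for ergosterol synthesis, and -0.60, -0.53 and -0.45 for mRNA export and nuclear RNA-binding proteins. The Hsp90 system and the ubiquitin and proteasome regulators had negative medians over all members in the pool (-0.20 and -1.83), but over the members with reads in libraries A, B and D the pool's medians were 0.11, -0.11 and 0.11 for the Hsp90 system and -1.83, -0.07 and 0.39 for the regulators.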

How the results depend on the processing

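No paired analysis was possible because the compared columns are pools that carry no replicate numbers, and no replicate could be left out of them. For mRNAs at least 2-fold higher, 76 as reported, the count was 316 with scaling to the median ratio, 45 with at least 100 reads, 185 with 0 min library C as control and 39 with the interval on counts divided by 3 wholly past the fold. For mRNAs at least 2-fold lower, 2828 as reported, it was 1486 with at least 100 reads, 1481 with library B, 896 with library C and 1313 with that interval. Libraries B and C hold fewer reads, and over the same 4117 mRNAs they gave 2709 and 2598. Noncoding transcripts at least 2-fold higher, 24 as reported, numbered 73 with at least 10 reads, 11 with at least 100 and 13 with that interval. Those at least 2-fold lower, 115 as reported, numbered 62 with scaling to the median ratio, 305 and 20 with at least 10 and 100 reads, 20 with library B, 23 with library C, 48 with library A counted at 1 read per 3, 58 with the 95% interval on deposited counts and 19 with the interval on counts divided by 3. The median log2 fold of the chaperone lists, 0.07 as reported, was 0.21 with the total of mRNA reads, 0.81 with scaling to the median ratio, -0.023 with at least 100 reads, 0.090, 0.12 and 0.10 with libraries A, B and C, and 0.12 with library A counted at 1 read per 3. The median tail difference of mRNAs, -12.1 as reported, was -14 for median tails, -10.6 with at least 10 reads, -10.3 with library B and -10.7 with library C. Over mRNAs at least 2-fold higher it was 8.46 as reported, 25.6 for the 95th percentile, -8.07 with at least 100 reads, -5.52 with library B and -7.87 with library C. Over mRNAs at least 2-fold lower it was -11.2 as reported, -15 for median tails, 5 for the 95th percentile, -8.61 with at least 10 reads, -9.07 with library B and -9.46 with library C. The share of reads on noncoding transcripts, 1.85% as reported, was 1.495% of a total with ENO2, 1.38% without rRNA and 0.873% without transcripts whose name holds an open reading frame. Of 202 genes with a value, 2 that were called lower changed sign, both with library C, namely CRM1 (-1.01 as reported) to 0.25 and PIR1 (-1.70 as reported) to 1.43. With library C another 12 genes lost their call and 21 gained one. With scaling to the median ratio 22 lost their call and 30 gained one. The cause of these changes was not tested. The settings with library A counted at 1 read per 3, with the interval on counts divided by 3 and without names holding an open reading frame were chosen after seeing the data.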
